A study of Homo sapiens with 12 samples.

Results

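The interleukin-1 (IL-1) family genes IL1A, IL1B, IL1RN, IL18, IL33, IL1R1, IL1R2 and IL1RAP, together with IL12A and IL24, were followed through an mRNA-seq experiment in HCC1806 cells. HCC1806 is a triple-negative breast cancer (TNBC) cell line. The 10 genes were taken by symbol, with earlier results of these data known, and 9 of them were found among the 17013 genes of the table. IL33 was not among the genes listed, so no value of it is given. HCC1806 cells were transfected with a non-targeting siRNA (siNT) or with a pool of 4 siRNAs against MLK4 (siMLK4), and were then left without drug, called vehicle here, or given 1 μM doxorubicin, a DNA-damaging anthracycline, for 24 h. The 4 groups are siNT vehicle, siNT doxorubicin, siMLK4 vehicle and siMLK4 doxorubicin, with 3 libraries each and 12 in all. The descriptions of siMLK4 doxorubicin replicates 2 and 3 end in the same suffix, but their reads differed by more than counting error (chi-square per degree of freedom 25.3, the largest of the 3 pairs of that group), and they were counted as separate. The cells without drug carry DMSO in the labels, are described as untreated in the methods and have 0 h in their titles, while other statements of the study set DMSO or vehicle beside the drug. These sources differ on the harvest time, and if the cells without drug were harvested earlier, doxorubicin and further culture cannot be told apart in the comparisons with vehicle. All groups are of the same line and all were transfected. The sequencing methods speak of triplicates, and a general statement that experiments were repeated is not tied to these libraries, so p-values measure the spread between these libraries, which may be technical. The experiment asked how loss of MLK4, a kinase of the MAP kinase cascades, bears on the transcriptional answer to doxorubicin, and the cytokines here are among the genes that such an answer can include.

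IL-1α (IL1A) and IL-1β (IL1B) are ligands of the receptor IL1R1, which signals together with the accessory chain IL1RAP through MYD88 and the IRAK kinases to NF-κB and the MAP kinases. IL1RN encodes the receptor antagonist that occupies IL1R1 without signalling, and IL1R2 encodes a decoy receptor that binds ligand but has no signalling domain. IL18 is an IL-1 family cytokine which, like IL-1β, is cut to its active form by caspase-1. IL12A encodes the p35 subunit of IL-12, and IL24 is a cytokine of the IL-10 family that binds IL20RB paired with IL20RA or IL22RA1 and activates STAT3. Epithelial cells, and squamous ones in particular, are known for holding IL-1α, the receptor antagonist and IL-18.

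Values are given as normalized reads, that is, reads per gene divided by the authors' size factor of the library. The libraries held 16759025 to 19302248 reads on the listed genes, and size factors ranged from 0.852 to 1.199. Log2 fold changes, SE and adjusted p-values come from limma on the deposited variance-stabilized values, a log2-like scale that understates the changes of genes with few reads. Changes were called where the adjusted p was under 0.01 and the log2 fold change over 0.75 in either direction, with the Benjamini-Hochberg adjustment over 17013 genes. As a check on the siRNA labels, MAP3K21, which encodes MLK4, had between 553.1 and 856.1 normalized reads in the 6 siNT libraries and between 88.65 and 138.4 in the 6 siMLK4 libraries. The siMLK4 cells kept 15.1% of the siNT mean with vehicle and 14.5% with doxorubicin, and every library matched its siRNA label.

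The siMLK4 arm rests on 1 pool of siRNAs and 1 control siRNA, and the sequences of the pool are shown because short matches to them also lie in the 3′ untranslated regions (3′UTRs) of several of the cytokine genes. An siRNA guide can lower other transcripts through its seed, bases 2 to 8. In the sense strands printed here, capitals mark bases 12 to 18, the word that a transcript must hold to pair with that seed.

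siMLK4 1, sense strand of the duplex: ggaaagaugcuCAGAGAGauu

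siMLK4 2, sense strand of the duplex: aggagaagcccAAGGUAAauu

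siMLK4 3, sense strand of the duplex: agaagaaacgaGAGGGAAuuu

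siMLK4 4, sense strand of the duplex: agaacagauugCAAAGAAauu

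Over 19 bases each of the 4 siRNAs matched transcripts of MAP3K21 and of no other gene in GENCODE release 44. Seed words were found in annotated 3′UTRs of 5 of the 9 measured genes, namely IL1A, IL1B, IL1R1, IL1RAP and IL24, and in 50.2% of all genes with an annotated 3′UTR. Among these 13571 genes the word of siMLK4 1 was present in 21.4%, that of siMLK4 2 in 13.7%, that of siMLK4 3 in 20.1% and that of siMLK4 4 in 24%. The sites follow for IL24, IL1A and IL1B, the 3 of these genes with the most negative fold changes of siMLK4 against siNT cells, on GRCh38 and in the sense of the transcript, with the seed word in capitals.

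IL24, siMLK4 1, chr1:206903485-206903511, + strand: gattgttaaaaaaCAGAGAGggatgct

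IL24, siMLK4 4, chr1:206903184-206903210, + strand: ccaggattattgtCAAAGAAgtcattc

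IL1A, siMLK4 3, chr2:112774571-112774597, - strand: cattttcaaaatgGAGGGAAtaatacc

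IL1B, siMLK4 1, chr2:112830334-112830360, - strand: agagagctgtaccCAGAGAGtcctgtg

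IL24 holds words of both siMLK4 1 and siMLK4 4, as do 1092 genes (8.05% of those with a 3′UTR). Of the genes with both of these words, 4.67% were called lower in siMLK4 cells with vehicle and 4.58% with doxorubicin. Of the 2844 genes with words of at least 2 siRNAs, 5.27% and 5.2% were called lower. IL1RAP holds words of siMLK4 2 and siMLK4 4. No seed word was found in the 3′UTRs of IL1RN, IL18, IL1R2 and IL12A, of which that of IL1R2 is 154 bases long. Of the 6815 genes with at least 1 seed word, 4.74% were called lower and 2.71% higher in siMLK4 vehicle cells, against 2.69% lower and 2.93% higher among the 6756 genes without one. With doxorubicin the shares called lower were 4.23% and 2.25%. These shares are a description and were not tested. With 1 pool and 1 control siRNA, effects of the seeds and of MLK4 loss cannot be told apart in these libraries.

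Of the 9 measured genes, 3 were called lower in siMLK4 than in siNT cells with vehicle (IL1A, IL1R2 and IL24), and 5 with doxorubicin (IL1A, IL1B, IL1R2, IL1RAP and IL24). None was called higher in either condition. Among all 17013 genes, 3.14% were called lower and 2.51% higher with vehicle, and 2.93% were called lower and 2.66% higher with doxorubicin. Their median log2 fold change was −0.69 with vehicle and −0.78 with doxorubicin, against 0.01 and 0.02 for all genes. The fold change was negative for 7 of the 9 genes with vehicle and for 9 with doxorubicin, against 48.4% and 47.2% of all genes. Every gene of the table had a highest group mean of at least 10.67 normalized reads. IL24 reached this level in the siNT groups alone, so that the filter favoured its calls as lower in siMLK4 cells. The study also picked out IL24 and IL12A from these samples, and their direction is not independent evidence for the 9 genes as a set. Doxorubicin raised IL24 and lowered IL1RN and IL18 in siNT cells, where 12.1% of all genes were called higher and 10.6% lower. In siMLK4 cells it lowered IL1RN and IL18 and raised none of the 9, while 12.6% of all genes were called higher and 10.6% lower. These comparisons share groups: the siNT vehicle libraries enter 2 of them, and so does each of the other groups. In a bulk sample, fewer cells that make a transcript and less of it per cell cannot be told apart.

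**Figure D1:**
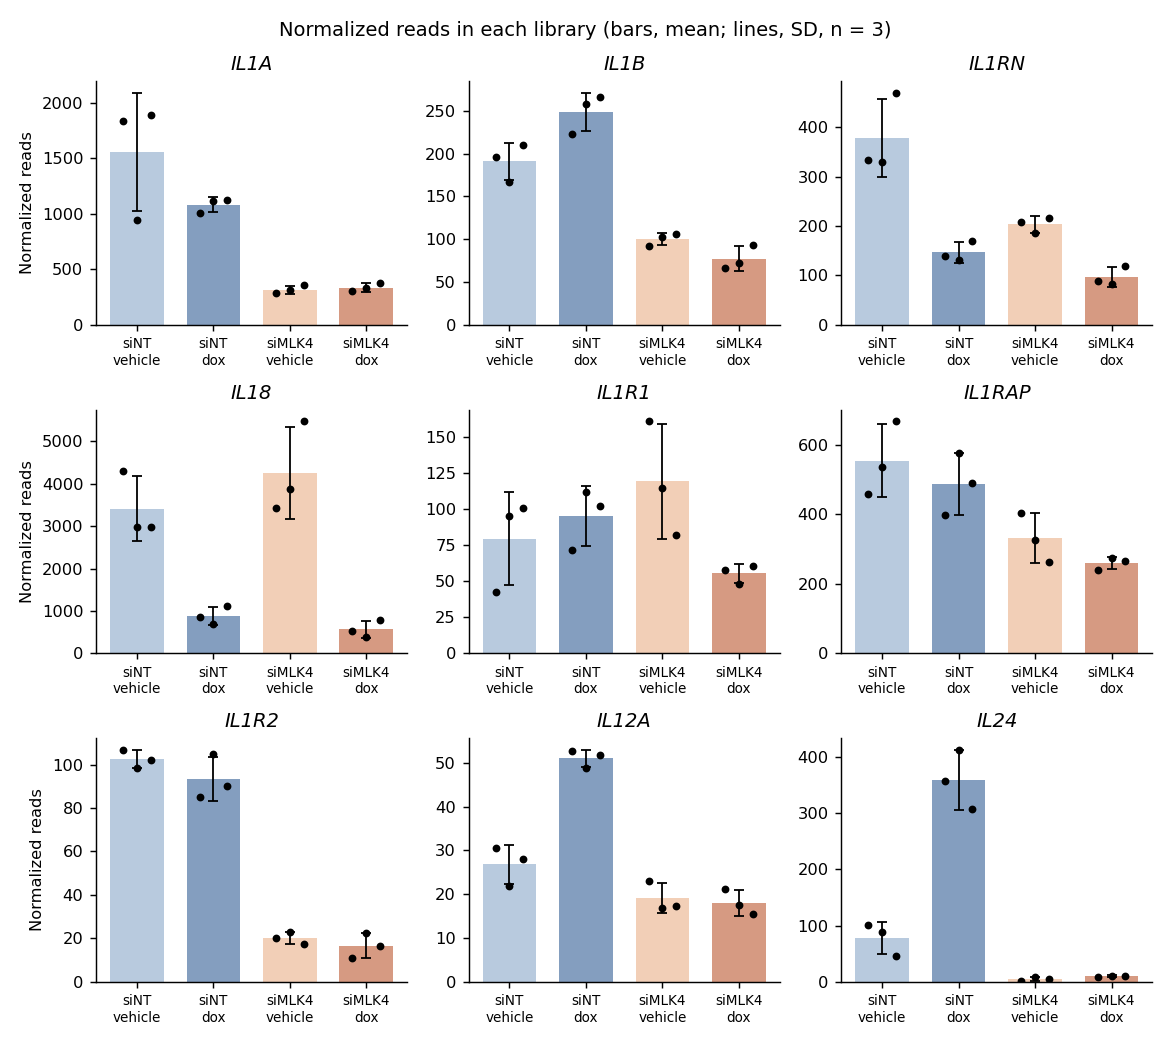
Normalized reads of the 9 measured genes in every library, with a linear axis from 0 in each panel; bars are group means, lines are SD (n = 3) and points are libraries. IL1A, IL1B, IL1R2 and IL24 lie lower in all siMLK4 libraries than in any siNT library, and IL18 and IL1RN fall with doxorubicin under both siRNAs.

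IL1A (ENSG00000115008, chromosome 2, 112773925 to 112784493, - strand) stood at 1839, 943.7 and 1890 normalized reads in siNT cells with vehicle and at 1003, 1119 and 1126 with doxorubicin. The siMLK4 libraries had 283.5, 308.9 and 355.7 with vehicle and 300.2, 326.9 and 380.1 with doxorubicin. All 6 siMLK4 libraries lay below the lowest siNT library, while siNT vehicle replicate 2 stood at about the level of the doxorubicin libraries and apart from the other siNT vehicle replicates. Levels in siMLK4 cells were 20.3% of the siNT mean with vehicle (log2 fold change −2.07, SE 0.20, limma adjusted p = 7.9e-06) and 31% with doxorubicin (−1.55, SE 0.20, limma adjusted p = 0.0001). Doxorubicin did not change IL1A past the thresholds in siNT cells (−0.44, limma adjusted p = 0.071) or in siMLK4 cells (0.08, limma adjusted p = 0.76). The siMLK4 difference with vehicle ranged from −2.39 to −1.90 when each library was left out in turn. Without siNT vehicle replicate 2 the fall of IL1A with doxorubicin in siNT cells was called (−0.76, limma adjusted p = 0.00036).

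The 250 bases before the first RefSeq start of IL1A (build GRCh38.p14, chr2:112784494-112784743, - strand) are shown because they hold a match to TGANTCA, a word bound by AP-1, the factor that MAP kinases act on. The word reads alike on both strands. It begins 12 bases before the start and is in capitals.

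IL1A promoter: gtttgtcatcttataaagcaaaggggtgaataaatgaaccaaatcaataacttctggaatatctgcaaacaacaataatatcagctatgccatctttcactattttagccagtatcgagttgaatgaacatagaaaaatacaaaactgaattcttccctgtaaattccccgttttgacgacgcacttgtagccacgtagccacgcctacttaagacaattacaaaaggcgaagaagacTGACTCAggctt

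Promoter entries were found for 9 of the 10 genes, with 17 starts among them, and not for IL18. The 9 include IL33, which is not in the table. TGANTCA was present before a start of 2 of these 9 genes, IL1A and IL1RN, and in 6.44% of 10994 protein-coding genes of the table. The κB motif was present for IL1R2 and IL12A, against 16% of the protein-coding genes. No binding was measured, and the matches are a description.

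IL1B (ENSG00000125538) lies 45258 bases from IL1A on the same strand of chromosome 2 (112829751 to 112836816). It had 196.1, 167.1 and 209.9 normalized reads in siNT vehicle libraries and 223.3, 257.5 and 265.6 with doxorubicin. In siMLK4 cells the values were 92.18, 102.6 and 105.9 with vehicle and 66.14, 72.54 and 93.45 with doxorubicin. The siMLK4 and siNT libraries did not overlap in either condition. With doxorubicin siMLK4 cells held 31.1% of the siNT mean (−1.26, SE 0.12, limma adjusted p = 9.5e-06). With vehicle it was 52.5%, and the difference had a limma adjusted p of 0.0009 but a log2 fold change of −0.69, short of the fold threshold. It passed on log2(normalized reads + 1), at −0.92, on log2(normalized reads + 8), at −0.88, and with limma-voom, at −0.78. Doxorubicin moved it by 0.31 in siNT cells (limma adjusted p = 0.038) and −0.26 in siMLK4 cells (limma adjusted p = 0.082), and the difference between them was −0.57 (SE 0.17, limma adjusted p = 0.12).

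IL1RN, the gene of the antagonist (ENSG00000136689, chromosome 2, 113099315 to 113134016, + strand), fell with doxorubicin under both siRNAs. It went from 334.7, 330.1 and 470.4 normalized reads to 138.4, 131.3 and 170.3 in siNT cells (−1.12, SE 0.15, limma adjusted p = 2e-05). Under siMLK4 it went from 207.4, 185.3 and 217.3 to 88.19, 83.38 and 119.8 (−0.81, SE 0.15, limma adjusted p = 0.0003). The libraries with doxorubicin were all below those without it under each siRNA. The siMLK4 call was lost with library totals as the scaling (−0.67) and without siMLK4 doxorubicin replicate 2 (−0.74). Between siMLK4 and siNT cells the difference with vehicle was −0.75 (limma adjusted p = 0.002), at the edge of the fold threshold and not called. It was called with TMM scaling (−0.75), with either pseudocount (−0.88 and −0.85) and when any of 4 vehicle libraries was left out (siNT replicate 1 or 2, siMLK4 replicate 1 or 3; −0.82 to −0.76). The difference with doxorubicin was −0.43 (limma adjusted p = 0.041).

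IL18 (ENSG00000150782, chromosome 11, 112143253 to 112164096, - strand) had the largest fall with doxorubicin of the 9 genes. It had 4294, 2972 and 2974 normalized reads in siNT vehicle libraries against 849.9, 696.3 and 1116 with doxorubicin (−1.88, SE 0.24, limma adjusted p = 1.5e-05). With siMLK4 it had 3422, 3877 and 5479 with vehicle against 515.6, 391.1 and 784.8 with doxorubicin (−2.83, SE 0.24, limma adjusted p = 5.4e-07). Vehicle and doxorubicin libraries were far apart under both siRNAs, while siMLK4 and siNT libraries overlapped in each condition. The siMLK4 cells differed from siNT cells by 0.31 with vehicle (limma adjusted p = 0.38) and by −0.64 with doxorubicin (limma adjusted p = 0.065). The difference between both falls was −0.94 (SE 0.34, limma adjusted p = 0.2). IL18 was thus not called between the siRNA groups.

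IL1R1, the signalling receptor (ENSG00000115594, chromosome 2, 102064544 to 102179874, + strand), was not called in any comparison. Its values were 42.27, 95.51 and 101 normalized reads in siNT vehicle, 71.98, 112 and 102.4 in siNT doxorubicin, 161.3, 114.6 and 82.16 in siMLK4 vehicle and 57.66, 48.36 and 60.79 in siMLK4 doxorubicin libraries. The replicates were widely spread with vehicle. The lowest of the 4 groups was siMLK4 doxorubicin, and the fall from siMLK4 vehicle was −0.69 (SE 0.21, limma adjusted p = 0.011), which passed without siMLK4 vehicle replicate 3 (−0.87, limma adjusted p = 0.0033).

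IL1RAP, the accessory chain (ENSG00000196083, chromosome 3, 190514051 to 190659750, + strand), was lower in siMLK4 cells. It had 459.1, 535.7 and 668 normalized reads in siNT vehicle libraries and 404.8, 326.8 and 262.7 in siMLK4 vehicle libraries (−0.66, SE 0.16, limma adjusted p = 0.0082), which did not pass the fold threshold. With doxorubicin the values were 397.7, 576.2 and 489.7 in siNT and 240, 272.7 and 266.7 in siMLK4 libraries. The mean of the latter was 53.3% of the former (−0.78, SE 0.16, limma adjusted p = 0.0031), and the groups did not overlap. This call was near the threshold and was lost with library totals (−0.71), without siNT doxorubicin replicate 2 (−0.67) or replicate 3 (−0.77, limma adjusted p = 0.014), and without siMLK4 doxorubicin replicate 1 (−0.74). The gene overlaps GCNT1P3 and RN7SKP296 on the same strand, and 0.194% of its 50-base stretches occur in other genes.

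IL1R2, the decoy receptor (ENSG00000115590, chromosome 2, 101991960 to 102028544, + strand), lies 36000 bases from IL1R1. It had 106.9, 98.63 and 102.2 normalized reads in siNT vehicle and 84.9, 104.8 and 90.24 in siNT doxorubicin libraries. The siMLK4 values were 20.04, 22.92 and 17.3 with vehicle and 11.02, 22.51 and 16.33 with doxorubicin. All siMLK4 libraries lay far below all siNT libraries. Relative to siNT cells the level was 19.6% with vehicle (−1.28, SE 0.12, limma adjusted p = 4.5e-06) and 17.8% with doxorubicin (−1.30, SE 0.12, limma adjusted p = 5.7e-06). At this number of reads the fold change depends on the scale and was −2.30 and −2.47 at its lowest among the alternatives. With doxorubicin the fold change was −0.10 in siNT and −0.11 in siMLK4 cells, and neither was called.

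IL12A (ENSG00000168811, chromosome 3, 159988835 to 159996019, + strand) had few reads. Its values were 30.53, 21.8 and 28.07 normalized reads in siNT vehicle and 52.6, 48.86 and 51.71 in siNT doxorubicin libraries. In siMLK4 cells they were 23.04, 16.94 and 17.3 with vehicle and 21.2, 17.51 and 15.42 with doxorubicin. The siNT doxorubicin libraries thus lay above all others. On the variance-stabilized scale neither the response in siNT cells (0.47, SE 0.11, limma adjusted p = 0.0016) nor the difference between siMLK4 and siNT cells with doxorubicin (−0.71, SE 0.11, limma adjusted p = 0.00031) passed the fold threshold. Both passed on log2(normalized reads + 1), at 0.92 and −1.46, and with limma-voom on the recovered reads, at 1.17 and −1.40. The response in siMLK4 cells was −0.03 (limma adjusted p = 0.82), and the difference between the responses was −0.50 (SE 0.15, limma adjusted p = 0.11). The study also measured IL12A by qRT-PCR. It reported induction by doxorubicin in control cells, which was impaired after MLK4 silencing. IL12A-AS1 lies on the opposite strand, as IL1R1-AS1 does for IL1R1 and FCMR for IL24, and the reads were counted by strand.

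IL24 (ENSG00000162892, chromosome 1, 206897443 to 206904139, + strand) was the only one of the 9 genes called higher with doxorubicin. It had 101, 88.25 and 46.03 normalized reads in siNT vehicle and 358.1, 413.3 and 307.2 in siNT doxorubicin libraries, a 4.585-fold higher mean (1.73, SE 0.18, limma adjusted p = 3e-06). In siMLK4 cells the values were 1.002, 8.968 and 4.324 with vehicle and 7.632, 10.84 and 10.89 with doxorubicin, from 14 and 34 reads in all. Even the highest siMLK4 library was below the lowest siNT library. No gene of the table had a highest group mean under 10.67 normalized reads, and IL24 reached this level in the siNT groups alone, through which it is in the table. The level relative to siNT cells was 6.08% with vehicle (−1.64, SE 0.18, limma adjusted p = 2.4e-05) and 2.72% with doxorubicin (−3.07, SE 0.18, limma adjusted p = 2.7e-07), against 15.1% and 14.5% for MAP3K21. In siMLK4 cells doxorubicin raised the mean 2.054-fold, which was not called (0.30, SE 0.18, limma adjusted p = 0.17).

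Whether the IL24 response itself differed between the siRNA groups depended on the scale. The interaction was −1.43 (SE 0.25, limma adjusted p = 0.015) on the variance-stabilized values, not past the threshold of 0.01. It was −1.62 on log2(normalized reads + 8) with an adjusted p of 0.058, −1.08 on log2(normalized reads + 1) with an adjusted p of 0.51 and −1.01 with limma-voom, at an adjusted p of 0.62. With library totals as the scaling it was −1.55 and passed both thresholds (limma adjusted p = 0.0087). For the other 8 genes the adjusted p of the interaction was at least 0.11. None of the 9 was called in the fit of the deposited values, against 0.276% of all genes (47 genes, with 2469 at an unadjusted p under 0.05). The lower IL24 level in siMLK4 cells was called under each of these scales.

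**Figure D2:**
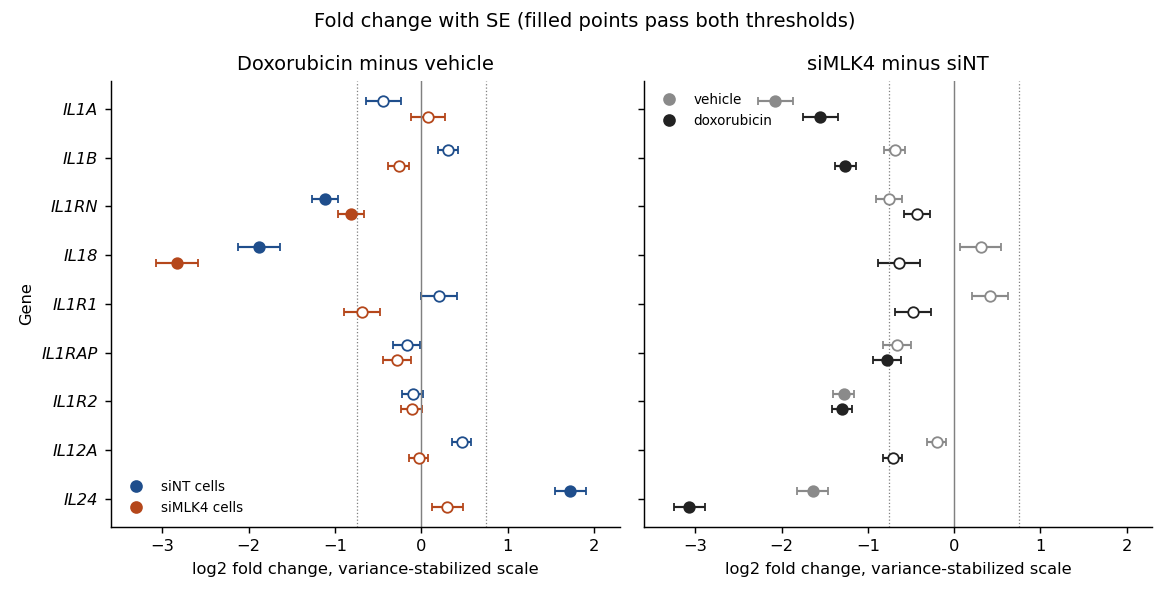
Log2 fold changes with SE for doxorubicin minus vehicle (left) and siMLK4 minus siNT (right), on the variance-stabilized scale of the limma fit; filled points pass both thresholds and dotted lines mark the fold threshold. In the right panel the filled points are all negative, and in the left panel IL24 in siNT cells is the filled point above 0.

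Set side by side per kb of exons, the order of the levels differed between groups. In siNT vehicle cells IL18 (1310 ± 292.8 normalized reads per kb, SD, n = 3) and IL1A (772.3 ± 263.9) were highest and did not overlap with each other or with IL1RN (101.3 ± 21.34). IL1B (63.5 ± 7.255), IL1RAP (49.44 ± 9.424), IL24 (39.63 ± 14.54) and IL1R2 (34.68 ± 1.396) followed, each overlapping with the next. IL12A (13.71 ± 2.302) and IL1R1 (11.18 ± 4.556) were lowest and overlapped. With doxorubicin siNT cells had IL1A first (536.8 ± 34.25 normalized reads per kb), before IL18 (340.7 ± 81.58) and IL24 (181.7 ± 26.81), and these 3 did not overlap.

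In siMLK4 vehicle cells IL18 (1635 ± 414.9 normalized reads per kb) stood above IL1A (156.7 ± 18.15) and IL1RN (54.46 ± 4.383) without overlap, and IL24 was last (2.408 ± 2.022). In siMLK4 cells with doxorubicin IL18 (216.4 ± 77.25) and IL1A (166.4 ± 20.18) overlapped, IL1RN (26.01 ± 5.292), IL1B (25.72 ± 4.746) and IL1RAP (23.17 ± 1.554) could not be ranked, and IL24 (4.945 ± 0.9429) overlapped with IL1R2 (5.621 ± 1.945). IL24 thus had rank 3 of 9 in siNT doxorubicin cells and rank 9 in siMLK4 doxorubicin cells. Dividing by the longest transcript in place of all exons changed the order only among genes of ranks 3 to 9.

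**Figure D3:**
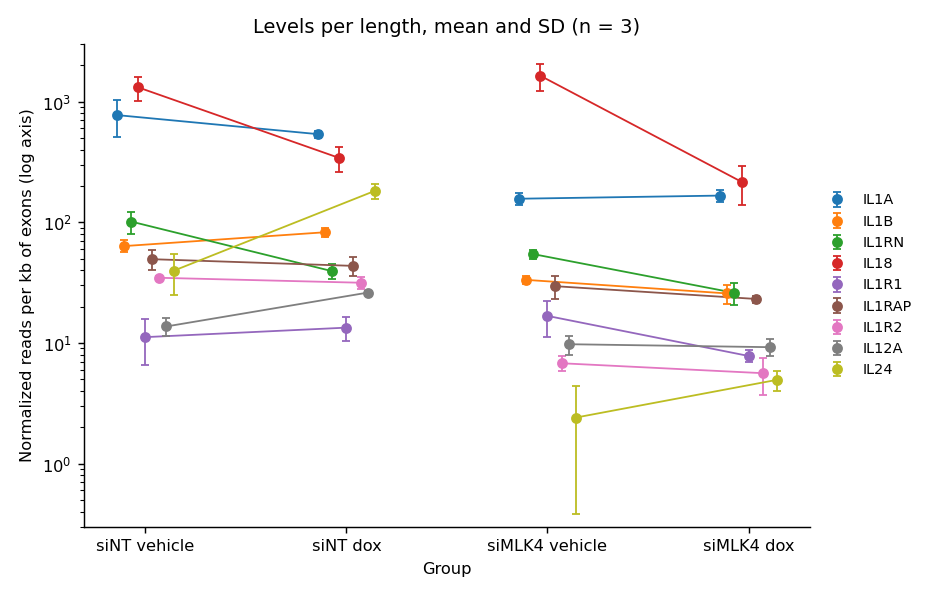
Mean normalized reads per kb of exons with SD (n = 3) for the 9 genes in the 4 groups, on a log axis; lines join vehicle and doxorubicin under the same siRNA. IL18 and IL1A lead in each group, and IL24 has rank 3 in siNT cells with doxorubicin and is last in both siMLK4 groups.

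Across the 12 libraries, IL1A, IL1B and IL1R2 followed each other closely, with a Pearson correlation of the variance-stabilized values of 0.954 between IL1A and IL1R2, 0.936 between IL1B and IL1R2 and 0.895 between IL1A and IL1B. IL12A and IL24 correlated at 0.924. IL18 followed IL1RN (0.810) and neither IL1A (0.154) nor IL24 (−0.244). These points share the 4 groups, and the values are a description. Among 11459 protein-coding genes with a mean of at least 50 normalized reads, the 3 most alike were PTHLH, EREG and MAP1B for IL1A (0.978 to 0.972), LIF, BIRC2 and INHBA for IL1B (0.980 to 0.974), XPOT, CTBP2 and TMEM154 for IL1RN (0.990 to 0.987) and CAMK1, B9D1 and HDDC2 for IL18 (0.997 to 0.993). Among the receptors they were MTA2, CCNYL1 and EYA4 for IL1R1 (0.925 to 0.915), ZDHHC5, UTP25 and TGOLN2 for IL1RAP (0.976 to 0.973) and PGGT1B, LRPPRC and ACVR1 for IL1R2 (0.990 to 0.984). JRKL, AADAC and GRAMD1B were most alike to IL12A (0.965 to 0.953), and SYMPK, CTSL and LAMB3 to IL24 (0.984 to 0.978).

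Other cytokines and receptors of the IL-1 family were sparse. IL36RN, the antagonist of the IL-36 receptor, was the 1 of 6 further cytokines in the table, and doxorubicin raised it in siNT cells from 84.55, 83.05 and 67.36 to 180.9, 185.3 and 179.5 normalized reads (0.88, SE 0.14, limma adjusted p = 9.9e-05). In siMLK4 cells IL36RN went from 88.17, 94.66 and 108.1 to 186.6, 137.6 and 231.3 (0.67, limma adjusted p = 0.00084), short of the fold threshold. Of 5 further receptors measured out of 8, IL1RL1 and IL18R1 were called higher with doxorubicin in siNT cells and IL1RAPL1 lower in siMLK4 cells. IL18R1 also rose in siMLK4 cells, by 0.75 (limma adjusted p = 0.00017), at the edge of the fold threshold and not called. With doxorubicin 12.1% of all genes were called higher in siNT cells and 10.6% lower in siMLK4 cells. IL1RAPL1 had 6 reads in the siMLK4 doxorubicin group. It reached a mean of 10.67 normalized reads in the vehicle groups alone, so that the filter favoured its call. IL1RL1, the IL-33 receptor, had 115.1, 89.28 and 90.93 normalized reads in siNT vehicle and 215, 257.5 and 187.6 in siNT doxorubicin libraries (0.88, SE 0.14, limma adjusted p = 0.00013). In siMLK4 cells it had 26.05, 37.86 and 18.38 with vehicle and 16.11, 21.68 and 23.59 with doxorubicin. It was called lower in siMLK4 cells in both conditions (−1.06 and −2.10), like IL24. Between the siRNA groups 3.14% of all genes were called lower with vehicle and 2.93% with doxorubicin. The ligand of IL1RL1, IL33, was not among the genes of the table.

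Below the receptor, the 17 listed signalling genes were all measured and 1 of them, IRAK1, was called between the siRNA groups, where 5.65% of all genes were called with vehicle and 5.58% with doxorubicin. IRAK1, the kinase recruited to the activated receptor, had 4164, 4148 and 3647 normalized reads in siNT vehicle and 1576, 1672 and 1272 in siMLK4 vehicle libraries (−1.38, SE 0.11, limma adjusted p = 1.6e-06). With doxorubicin the values were 2253, 2204 and 2383 against 1117, 1112 and 1189 (−0.97, SE 0.11, limma adjusted p = 4e-05). Doxorubicin lowered IRAK1 in siNT cells (−0.79, limma adjusted p = 3.7e-05) and raised PELI1, a ubiquitin ligase of the IRAK complex, in siMLK4 cells (0.86, limma adjusted p = 0.00035). IRAK1 changed by −0.38 in siMLK4 cells (limma adjusted p = 0.0091) and PELI1 by 0.60 in siNT cells (limma adjusted p = 0.0053). Both were short of the fold threshold. With doxorubicin 22.7% of all genes were called in siNT cells and 23.2% in siMLK4 cells, in either direction. The remaining 15 passed in no comparison, and the list's median fold change between siMLK4 and siNT cells was 0.01 with vehicle and 0.07 with doxorubicin.

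Among the genes that process or release these cytokines, 15 of 17 were measured, and 7 were called with doxorubicin in siNT cells and 8 in siMLK4 cells, where 22.7% and 23.2% of all genes were called in either direction. Their median fold change with doxorubicin was −0.55 in siNT and −0.50 in siMLK4 cells, against 0.00 and 0.02 for all genes. In siNT cells doxorubicin lowered 6 of them (PYCARD, NEK7, GSDMD, CAPN1, CAPN2 and HAX1) and raised NLRP1. In siMLK4 cells it lowered 6 (CASP1, CASP4, PYCARD, GSDMD, CAPN1 and CAPN2) and raised NLRP1 and NLRC4. NLRC4 reached a mean of 10.67 normalized reads, the lowest that brought a gene into the table, in siMLK4 doxorubicin cells alone, so that this filter favoured its call. CASP1, the caspase that cuts pro-IL-1β and pro-IL-18, had 683.3, 753.3 and 815.2 normalized reads in siMLK4 vehicle and 195.9, 178.4 and 326.6 in siMLK4 doxorubicin libraries (−1.53, SE 0.17, limma adjusted p = 4.5e-06), and in siNT cells its fold change was −0.67 (limma adjusted p = 0.0036), short of the threshold. PYCARD, the adaptor of inflammasomes, went from 297.1, 262.7 and 207.7 to 68.29, 45.81 and 74.01 in siNT cells (−1.48, SE 0.23, limma adjusted p = 8.8e-05). Between the siRNA groups CASP4 was the 1 gene of the list that was called, lower in siMLK4 cells with doxorubicin (−0.96, SE 0.13, limma adjusted p = 0.00014), where 5.58% of all genes were called in either direction.

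The list of genes that answer IL-1 in epithelial cells held 18 measured genes of 20. With vehicle 5 of them were called lower in siMLK4 cells (CXCL8, CXCL1, CSF2, PTGS2 and TNFAIP3), and with doxorubicin 7, the same 5 with IL6 and LIF. None was called higher in either condition. Of all genes 3.14% and 2.93% were called lower. CSF2 reached a mean of 10.67 normalized reads in the siNT groups alone, so that the filter favoured its calls. The median log2 fold change of the list was −0.45 and −0.47, against 0.01 and 0.02 for all genes. CXCL8, a neutrophil chemokine, had 1058, 493.1 and 728.6 normalized reads in siNT vehicle and 73.14, 115.6 and 144.9 in siMLK4 vehicle libraries (−2.31, SE 0.26, limma adjusted p = 3.1e-05). PTGS2, which encodes cyclooxygenase-2, had 3173, 2081 and 4061 against 584.1, 477.3 and 515.7 (−2.40, SE 0.20, limma adjusted p = 2e-06). The groups did not overlap for either gene, and in siNT vehicle replicate 2 both were lowest, as IL1A was.

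Doxorubicin raised CXCL8, CXCL1, CXCL5, ICAM1 and IL6 of this list in cells of either siRNA, and CXCL3 in siMLK4 cells, and it lowered PTGS2 and CSF2 in siNT cells. Of all genes 12.1% in siNT and 12.6% in siMLK4 cells were called higher, and 10.6% were called lower under each siRNA. The median of the list with the drug was 0.11 in siNT and 0.13 in siMLK4 cells, against 0.00 and 0.02 for all genes. IL6, at 4.697, 2.076 and 1.123 normalized reads in siNT vehicle libraries, reached 467.9, 482.5 and 550.5 with doxorubicin. In siMLK4 cells it was 2.004, 0 and 3.243 with vehicle and 92.43, 65.04 and 172.4 with doxorubicin, where it was lower than in siNT cells (−1.85, SE 0.21, limma adjusted p = 3.1e-05). Only with doxorubicin did IL6 reach a mean of 10.67 normalized reads, so that the filter favoured its calls with the drug. IL6, CXCL8 and CXCL1, like IL24 and IL12A, are also genes that the study picked out from these samples, IL24 in a figure. Their direction here is therefore not independent evidence for a list.

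**Figure D4:**
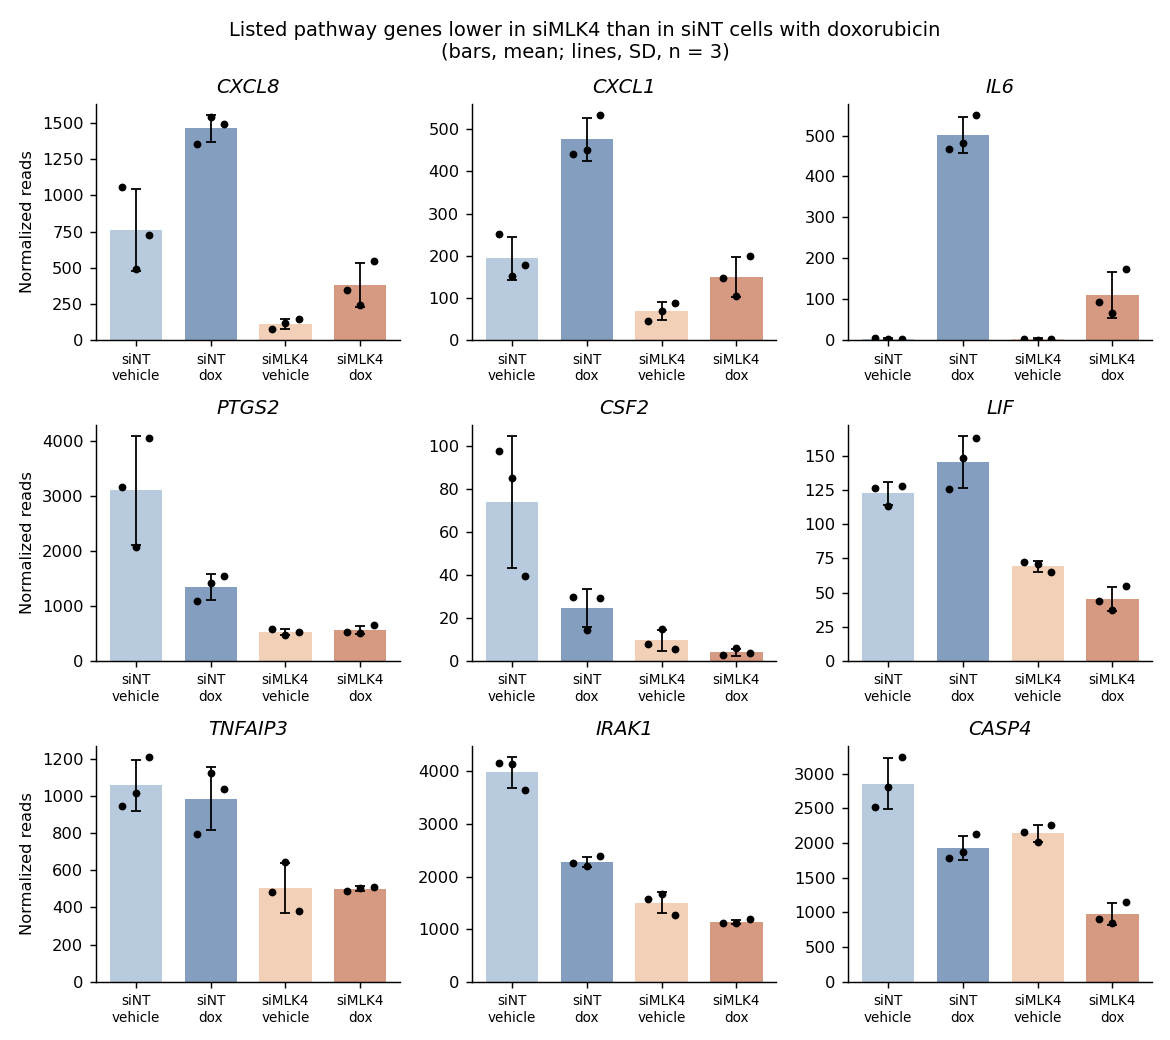
Normalized reads of IRAK1, CASP4 and those of the listed IL-1 responsive genes that were called lower in siMLK4 than in siNT cells with doxorubicin; bars are group means, lines SD (n = 3) and points libraries, with a linear axis from 0. IL6 is near 0 in both vehicle groups, and PTGS2 falls with doxorubicin in siNT cells but lies between 477.3 and 645.1 in all siMLK4 libraries.

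Around IL24, 6 of 12 listed genes of its subfamily, its relatives and their receptors were measured, with a median fold change between siMLK4 and siNT cells of −0.58 with vehicle and 0.00 with doxorubicin, against 0.01 and 0.02 for all genes. IL20, the neighbouring cytokine that uses the same receptors, had 5, 5 and 12 reads in siNT vehicle and 19, 18 and 16 in siNT doxorubicin libraries. It had 0 reads in all 3 siMLK4 vehicle libraries, at least 7.93-fold lower than in siNT cells when 3 reads are allowed over the group, and 2 reads in the siMLK4 doxorubicin libraries, a ratio of 30.2 between siNT and siMLK4 cells (95% Clopper-Pearson interval 7.96 to 256, counting error only). IL20 was called lower in both conditions, but it reached a mean of 10.67 normalized reads in siNT doxorubicin cells alone, so that the filter on low genes favoured a difference from that group. IL20RA was lower in siMLK4 vehicle cells, with 353.7, 290.9 and 478.9 against 793.8, 698.7 and 839.7 normalized reads (−0.98, SE 0.14, limma adjusted p = 0.00025), and with doxorubicin the difference was −0.06. IL20RB, the shared chain, fell with doxorubicin from 2519, 1307 and 2272 to 303.6, 354.2 and 540.4 in siNT cells (−2.19, SE 0.28, limma adjusted p = 1.8e-05) and by 1.55 on the log2 scale in siMLK4 cells. The ligand IL24 thus rose with the drug in siNT cells while the receptor chain IL20RB fell. Of all genes 3.14% were called lower in siMLK4 than in siNT cells with vehicle and 2.93% with doxorubicin. For doxorubicin against vehicle, 10.6% were called lower under each siRNA and 12.1% higher in siNT cells.

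**Figure D5:**
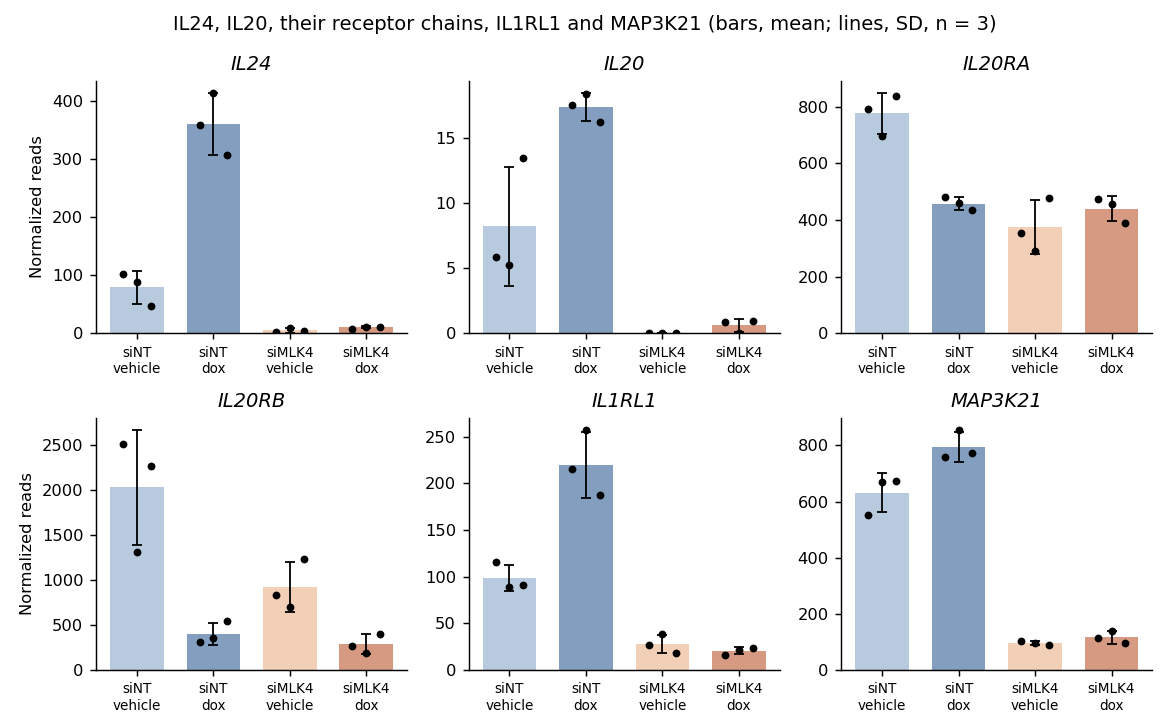
Normalized reads of IL24, IL20, their receptor chains IL20RA and IL20RB, IL1RL1 and MAP3K21; bars are group means, lines SD (n = 3) and points libraries, with a linear axis from 0. IL24, IL20 and IL1RL1 are highest in siNT cells with doxorubicin and low in both siMLK4 groups, and IL20RB is highest in siNT vehicle cells.

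Of 11 listed STAT pathway genes, all measured, SOCS3 was called higher with doxorubicin in siNT cells (0.91, limma adjusted p = 8.3e-06) and in siMLK4 cells (0.79, limma adjusted p = 2.7e-05), and SOCS1 was called higher in siMLK4 vehicle cells (0.76, limma adjusted p = 0.0022). Both encode feedback inhibitors of cytokine receptors. Of all genes 12.1% and 12.6% were called higher in the drug comparisons and 2.51% in the siRNA comparison with vehicle. Of 8 listed IL-12 family genes only 3 were in the table. IL12RB1, a receptor chain for IL-12, fell from 50.49, 49.83 and 50.52 to 5.537, 3.054 and 4.056 normalized reads in siNT cells with doxorubicin (−1.28, SE 0.12, limma adjusted p = 1.3e-06). It was also called lower with doxorubicin in siMLK4 cells (−0.96, limma adjusted p = 1.6e-05), as was IL27RA, a receptor chain for IL-27 (−1.16, limma adjusted p = 4.1e-06), whose fold change in siNT cells was −0.52. Under each siRNA 10.6% of all genes were called lower with doxorubicin. IL12RB1 reached a mean of 10.67 normalized reads in the vehicle groups alone, so that the filter favoured its calls. IL12B, which encodes the partner of the IL12A product in IL-12, was not among the listed genes.

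The cells were checked against marker lists. All 8 squamous or basal epithelial markers were measured, with KRT5 the most abundant in vehicle and EPCAM in doxorubicin cells, and their summed level was 73915 normalized reads in siNT vehicle, 68088 in siMLK4 vehicle, 41359 in siNT doxorubicin and 29442 in siMLK4 doxorubicin cells (group means). Doxorubicin lowered 5 of the 8 (KRT5, KRT6A, KRT14, TP63 and EGFR) under each siRNA, where 10.6% of all genes were called lower, the same condition in which IL18 and IL1RN fell. Between the siRNA groups 3.14% of all genes were called lower with vehicle and 2.93% with doxorubicin. KRT6A and KRT14 were called lower in siMLK4 cells in both conditions and KRT17 with doxorubicin. Their part in the results was not tested. Of 8 leukocyte markers 3 were measured, with a summed group mean between 44.95 and 68.57 normalized reads and CSF1R highest in vehicle and CD14 in doxorubicin cells. PTPRC was called higher with doxorubicin in siMLK4 cells, from 0, 1.993 and 3.243 to 11.87, 20.85 and 20.87 normalized reads (0.84, limma adjusted p = 0.00018), and its part in the results was not tested. CD3E, ITGAM, FCGR3A and LYZ were among those not in the table. Of the fibroblast markers 2 of 5 were measured (COL1A1 highest in each group, sums of 270 to 552.4), and COL1A1 was called higher in siMLK4 vehicle cells (0.78, limma adjusted p = 0.00041). Its part in the results was not tested. The table held 1 of 4 endothelial markers (VWF, 25.08 to 51.57). All 5 markers of hormone receptor or ERBB2 positive breast cells were measured, with sums of 3118 to 4642, where ERBB2 was highest in siNT vehicle cells and GATA3 in the other groups. PGR had 0 reads in every vehicle library and was called higher with doxorubicin under each siRNA, at means of 13.27 normalized reads in siNT and 11.66 in siMLK4 cells. ESR1 was called lower with doxorubicin in siMLK4 cells (−0.78, limma adjusted p = 0.0014). Their part in the results was not tested here either. PGR and PTPRC reached a mean of 10.67 normalized reads with doxorubicin alone, so that the filter favoured their calls.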

How the data were processed

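mRNA of 12 samples of the cell line was made into poly(A) libraries and sequenced in paired ends. The submitters' processing notes name Trimmomatic 0.39, HISAT2, HTSeq 0.6.0 and DESeq2 1.26.0. The supplementary methods give GRCh38 as the genome and counting on the reverse strand, and the processing notes give hg19. Only gene counts enter here, and coordinates are those of GENCODE release 44 on GRCh38. The authors deposited log2-scale values, variance-stabilized from size-factor scaled counts. That form was inferred from the table itself. Inverting it gave whole reads, within 0.05, for 100% of the values in every library. The table had been filtered, since no gene's highest group mean is under 10.67 normalized reads.

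The deposited values were fitted with limma 3.58.1 in R 4.3.3 (variance trend, all 12 libraries, 4 group means), which was tested on simulated data. The simulation gave all genes and groups an equal dispersion, so it does not cover the unequal spread of these libraries. Alternatives were other scalings and scales, thresholds, filters, a replicate block and leaving out each library. Equally numbered libraries deviated together in every pair, which is read from the values, for doxorubicin in siNT cells (correlations 0.46, 0.11 and 0.20) and for the siRNA groups with doxorubicin (0.19, 0.52 and 0.56), and not in the other comparisons. Replicates of a group differed by more than counting error (chi-square per degree of freedom 7.03 to 64.1). The members and lists were chosen with earlier results of these data known. Named are all members, MAP3K21, list genes and markers that were called, markers that are absent or the most abundant of their list, and for each member the 3 genes most alike over the libraries. Genes outside this rule are named only as background, as overlapping genes, or as IL33 and IL12B, which were not in the table. Intervals cover counting error only. The main fit used the deposited log2 unit in place of a count model, and limma-voom on the recovered reads was an alternative.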

Additional observations from a re-analysis of the deposited data

Results flagged for a closer look

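The response of IL24 to doxorubicin was smaller in siMLK4 than in siNT cells by −1.43 on the variance-stabilized log2 scale (limma interaction, adjusted p = 0.015), a difference that an adjusted p under 0.05 brought to attention. It rests on 14 and 34 reads in the siMLK4 groups, and the adjusted p was 0.62 with limma-voom and 0.51 on log2(normalized reads + 1). With library totals as the scaling it passed both thresholds (−1.55, limma adjusted p = 0.0087). Of the listed pathway genes, IL6 differed in the same way by −1.72 (adjusted p = 0.011, and 0.58 with limma-voom), which passed both thresholds with the replicate block (adjusted p = 0.0099). IL1RL1 differed by −1.04 (adjusted p = 0.022, and 0.074 with limma-voom) and ICAM1 by −0.68 (adjusted p = 0.042, and 0.038 with limma-voom). The response of IL20RA was more positive in siMLK4 cells by 0.92 (adjusted p = 0.041, and 0.061 with limma-voom), since it fell by 0.70 on the log2 scale in siNT cells and was 0.23 in siMLK4 cells. The fall of KRT5, a basal keratin, was larger in siMLK4 cells, with an interaction of −0.96 (adjusted p = 0.047, and 0.038 with limma-voom).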

How the results depend on the processing

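Of 931 repeats of a gene's fold change in a comparison under another setting, 886 kept their direction and their side of the thresholds, 23 gained and 6 lost a call, and 16 turned direction. Scaling by library totals moved the median of all genes by 0.18, 0.14, 0.10 and 0.06 for doxorubicin in siNT and siMLK4 cells and for siMLK4 against siNT cells without and with the drug, and limma-voom by 0.24, 0.19, 0.15 and 0.09. The number of members called for doxorubicin in siNT cells was 5 at an adjusted p under 0.05 with no fold threshold, in place of 3, where 57.3% of all genes passed, 4 with limma-voom and either pseudocount (IL12A added), 2 with at least 10 reads in every library (IL24 not tested), and 3 to 4 when a library was left out. For doxorubicin in siMLK4 cells it was 1 with library totals and with an adjusted p under 0.05 and a fold threshold of 1, and 1 to 3 when a library was left out (1 without siMLK4 doxorubicin replicate 2, 3 without siMLK4 vehicle replicate 3). For siMLK4 against siNT with vehicle it was 5 with either pseudocount, 6 at an adjusted p under 0.05 alone (25.8% of all genes), and 3 to 5 when a library was left out, with 5 without siNT vehicle replicate 1 or 2 or siMLK4 vehicle replicate 1. With doxorubicin it was 4 with library totals, 6 with limma-voom and either pseudocount, 7 at an adjusted p under 0.05 alone (24.8% of all genes), and 4 to 5 when a library was left out. For the interaction it was 1, IL24, with library totals (−1.55, adjusted p = 0.0087) and at an adjusted p under 0.05 with or without a fold threshold of 1. With the replicate block the number for siMLK4 against siNT with doxorubicin was 5, the IL24 interaction had an adjusted p of 0.015, and no call of a member changed. The turns were all in fold changes that were not called. IL1R2 with doxorubicin in siNT cells was 0.07 with library totals and 0.10 with limma-voom, and IL1RAP was 0.05 with both. IL12A in siMLK4 cells was 0.04 and 0.10. The IL1R2 interaction was 0.00 with TMM scaling. When libraries were left out, IL1A with doxorubicin in siMLK4 cells ranged from −0.01 to 0.15, IL1R1 in siNT cells from −0.04 to 0.34, IL12A in siMLK4 cells from −0.08 to 0.03, and the interactions of IL1R2 from −0.11 to 0.08 and of IL1RAP from −0.25 to 0.02. Causes were not tested. IL24 has under 10 reads in some siMLK4 libraries and could not be fitted with the filter of 10 reads in every library.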
